A study of Mus musculus with 3 samples.

Results

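Chemokines are small secreted proteins that guide moving cells, and the 7 genes described here, Cxcl12, Cxcl14, Cxcl1, Ccl2, Ccl21a, Cxcr4 and Ackr3, are 5 ligands and 2 receptors of this system, taken by name from a table of 19165 genes. The table holds 48 other chemokine ligand and receptor genes. Skin was taken from the back of male C57BL/6 mice at 2 embryonic days (E13.5 and E16.5) and at the day of birth (P0), which cover the induction, growth and differentiation of the first hair follicles, and no animal was treated. Skin of several animals was pooled into 1 library at each stage. Embryonic skin was digested with trypsin and EDTA and newborn skin with collagenase IV, so that stage, library, enzyme and sequencing depth cannot be told apart. Transcripts were counted with droplet-based 3' sequencing, in which a unique molecular identifier (UMI) marks each captured molecule.

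With 1 library per stage there is no replicate and no test was run. A level is given as UMIs of a gene per 1000000 UMIs of a group of cells (CPM), and a value in square brackets is an exact 95% Poisson interval of a level, an exact binomial interval of a share or an exact conditional interval of a ratio. These intervals cover counting error only. A gene was called higher or lower between groups where its CPM differed by a fold of 2 among genes with at least 50 UMIs in both groups together, and the share of all genes called in this way is given beside the members. A gene can reach that minimum through the group where it is high alone, and such a call rests on that group. The libraries held 53334740 UMIs in 5962 cells at E13.5, 66239195 in 5208 cells at E16.5 and 46599806 in 5065 cells at P0, with a median of 7066.5, 11021 and 6797 UMIs per cell. Pairs of libraries shared between 32 and 44 cell barcodes. Cells were clustered with all chemokine and receptor genes left out, and clusters were called fibroblast-like, macrophage-like and so on from lists of markers that hold none of the members. The shorter names are used from here, and they mean no more than the markers. The upper and deep dermal groups, the dermal condensate or dermal papilla group (DC/DP, the cells that instruct the follicle from below) and the epithelial groups were named within their class, and cells of a class that fitted no list are called other dermal or other epithelial. In the DC/DP group all 12 of 12 markers were at 2 times their level in other cells or more at both E16.5 and P0, and so were 8 of 8 pericyte markers and 6 of 6 lymphatic markers. In upper dermal cells 4 of 6 markers reached that mark at E13.5, 3 of 6 at E16.5 and 4 of 6 at P0. Since these markers named the groups, such counts describe the groups and are no check on the names. There were 44 groups of at least 50 cells over the 3 stages.

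CXC chemokines carry one residue between their first pair of cysteines and CC chemokines carry none. Cxcl12 is made by stromal cells and signals through Cxcr4, a G protein-coupled receptor, while Ackr3 binds Cxcl12 without the usual G protein signal and removes it from the tissue. Cxcl14 is a chemokine of epithelia, Cxcl1 draws neutrophils and Ccl2 draws monocytes. The product of Ccl21a or its near-identical copies is made by lymphatic vessels, where it guides Ccr7-bearing leukocytes. The part of each coding sequence that holds the family motif is shown because it separates the CXC from the CC members, with the motif cysteine codons in capitals. All 5 stretches were read from GENCODE vM21 transcripts.
Cxcl12: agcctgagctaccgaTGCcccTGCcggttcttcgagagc
Cxcl14: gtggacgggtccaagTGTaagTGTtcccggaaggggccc
Cxcl1: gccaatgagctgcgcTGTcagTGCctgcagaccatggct
Ccl2: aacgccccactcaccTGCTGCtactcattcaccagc
Ccl21a: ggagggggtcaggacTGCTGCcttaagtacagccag
Each gene is protein coding on GRCm38. Cxcl12 lies at chr6:117168535-117181367 (plus strand), Cxcl14 at chr13:56288643-56296551 (minus strand) and Cxcl1 at chr5:90891241-90893115 (plus strand). Ccl2 lies at chr11:82035571-82037453 (plus strand) and Ccl21a at chr4:42772860-42773993 (minus strand). The receptor genes both lie on chromosome 1, Cxcr4 at chr1:128588199-128592293 (minus strand) and Ackr3 at chr1:90203980-90216751 (plus strand).

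Ccl21a has near-identical copies, and its UMIs may belong to more than 1 gene. Its coding sequence of 399 bases differs from that of Ccl21b, which is not in the table, at 2 positions counted from the start codon, T84A and C194T. The stretch around the first of them is shown with the differing base in capitals.
Ccl21a: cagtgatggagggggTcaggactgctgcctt
Ccl21b: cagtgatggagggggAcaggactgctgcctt
Of all stretches of 90 bases in the Ccl21a transcript, 54.8% also occur in transcripts of 4 other annotated genes, against 0% for each of the other 6 members. Values of Ccl21a are therefore of this gene or its copies.

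**Figure D1:**
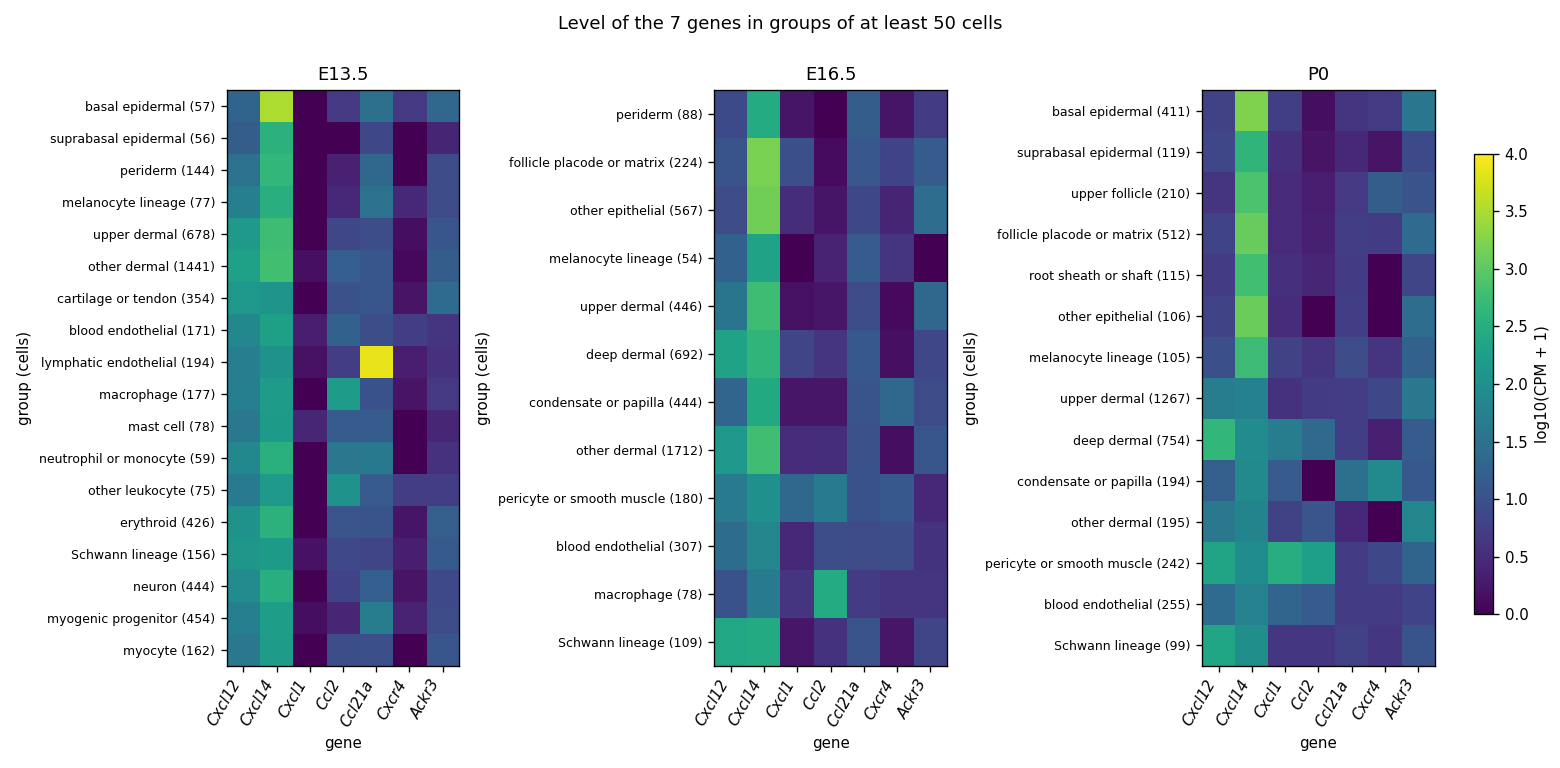
Heat maps of the 7 members at E13.5, E16.5 and P0, with the groups of at least 50 cells as rows and colour giving the log10 of CPM plus 1. Each member was high in different groups: Ccl21a in lymphatic cells at E13.5, Cxcl14 in epithelium, Ccl2 in macrophages, Cxcl1 in pericytes at P0 and Cxcr4 in DC/DP cells.

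Over all other cells of the same library, the groups named below for each member differed from the rest as follows. Ccl21a was 245-fold higher in lymphatic cells at E13.5, where 25.7% of all genes were called, Ccl2 was 48.7-fold higher in macrophages at E16.5 (36.1%) and Cxcl1 was 28.5-fold higher in pericytes at P0 (26.1%). At P0 Cxcr4 was 14.8-fold higher in DC/DP cells (27.6%), Cxcl12 11.3-fold in deep dermal cells (31.6%), Cxcl14 4.10-fold in basal epidermal cells (28.1%) and Ackr3 3.28-fold in other dermal cells (29.6%). Since between 25.7% and 36.1% of genes passed the same fold in these broad contrasts, such a call is common among genes.

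The members differed in how far their UMIs were spread over cells. The 1% of cells with most Ccl21a UMIs held 58.2%, 94.8% and 96.0% of them at E13.5, E16.5 and P0, and the top 1% for Ccl2 held 46.4%, 59.7% and 72.9%. At P0 the top 1% held 65.3% of Cxcl1 UMIs. Cxcl14 and Cxcl12 were spread most evenly at E13.5 (11.8% and 11.0%) and at E16.5 (7.96% and 8.73%). At P0 Cxcl14 (13.9%) was followed by Ackr3 (17.3%) and Cxcl12 (20.2%). A low number of UMIs raises this share by itself. In the libraries as a whole Cxcl1 had 16, 217 and 1026 UMIs, Cxcr4 had 50, 219 and 346 and Ackr3 had 588, 728 and 1026, so that at E13.5 Cxcl1 and Cxcr4 were close to the limit of detection.

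Cxcl12 was highest in dermal fibroblasts at E13.5 and P0 and in Schwann cells, the glia of nerves, at E16.5, and among fibroblasts it was high in the deep dermis and low in the DC/DP group. At E13.5, where no deep group was named, other dermal cells had 193 CPM [186 to 201] and a UMI in 60.2% of cells. Upper dermal cells followed with 139 CPM, cartilage or tendon cells with 135 CPM and Schwann cells with 129 CPM, and the intervals of these 3 groups overlapped each other but not that of other dermal cells. Those of cartilage or tendon and Schwann cells also overlapped that of erythroid cells. Erythroid cells, which should lack Cxcl12, had 112 CPM and a UMI in 50.2% of cells, with median depths of 5805 UMIs against 8044 in other dermal cells. After thinning to 3500 UMIs per cell the shares were 34.0% and 39.5%. The dermal markers summed to 6550 CPM in these erythroid cells against 8844 CPM in the dermal class, so dermal RNA was counted in that group too. Groups with less Cxcl12 were also seen at E13.5, with 18.2 CPM in basal and 14.2 CPM in suprabasal epidermal cells. The erythroid level is thus a high reference. For levels between these, as in blood endothelial cells (72.4 CPM) or macrophages (52.6 CPM), transcripts of the group and background cannot be told apart.

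At E16.5 Schwann cells led with 246 CPM [220.2 to 273] and 80.7% of cells, followed by deep dermal cells with 201 CPM [191 to 210.1] and 77.2%, and by other dermal cells with 137 CPM [132 to 142]. None of these 3 overlapped its neighbour in the order. Pericytes had 43.2 CPM, upper dermal cells 35.2 CPM, DC/DP cells 19.1 CPM and periderm cells, an epithelial cover that should lack it, 6.79 CPM, with a UMI in 6.82% of periderm cells. Median depths were 11930 UMIs in deep dermal cells as against 12498 in periderm cells. A group of 26 erythroid cells at E16.5 stood at 107 CPM, above pericytes and upper dermal cells, with the dermal markers at 18554 CPM.

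At P0 deep dermal cells led with 438 CPM [421 to 456], and they held 59.96% of all Cxcl12 UMIs of the library in 14.9% of its cells. A UMI was seen in 70.3% of deep dermal cells and, after thinning, in 55.2%, against 6.33% and 2.92% of basal epidermal cells, with median depths of 6645.5 and 8067 UMIs. Schwann cells with 219.8 CPM [184 to 261] and pericytes with 218 CPM [197 to 242] came next and overlapped each other. Upper dermal cells had 47.6 CPM, other dermal cells 38.6 CPM, blood endothelial cells 24.3 CPM and DC/DP cells 15.3 CPM. The dermal markers summed to 7548 CPM in the Schwann cells of E16.5 and 9411 CPM in those of P0, against 28124 CPM and 42664 CPM in the dermal class. The Schwann interval of E16.5 overlapped that of 320 unnamed dermal cells led by Mgst1, with 236 CPM [221 to 252]. The part of dermal RNA in the Schwann levels was not tested.

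The contrast within the dermis was large at both later stages. In upper over deep dermal cells Cxcl12 stood at a ratio of 0.175 [0.147 to 0.208] at E16.5 and 0.109 [0.0971 to 0.121] at P0, which is 5.70-fold and 9.21-fold lower, and 13.3% and 18.9% of all genes were called there. Without the 186 deep cells led by Mfap5 the P0 ratio was 0.184. Of the subclusters in these groups, 3 of 5 deep and 1 of 2 upper ones at E16.5, and 1 of 5 upper ones at P0, had more markers of another class than of their own among their leading genes. In DC/DP cells over the other cells of the dermal class the ratios were 0.135 [0.107 to 0.169] and 0.0815 [0.0504 to 0.125], which is 7.41-fold and 12.3-fold lower, with 14% and 23.7% of genes called. In pericytes over the dermal class the ratio was 0.337 at E16.5 and 1.26 [1.13 to 1.401] at P0, with 19.4% and 21.3% of genes called.

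**Figure D2:**
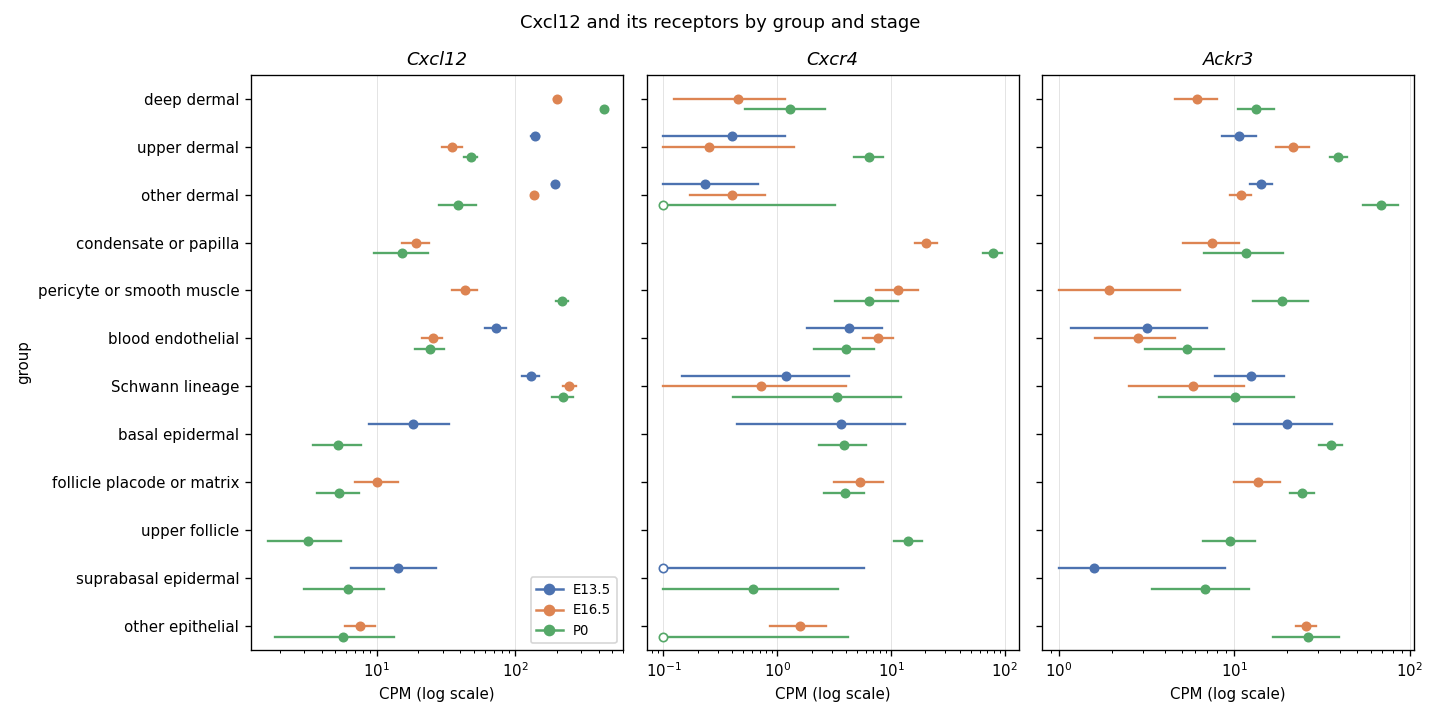
Levels of Cxcl12, Cxcr4 and Ackr3 by group and stage on a log axis in CPM, with bars for 95% Poisson intervals and open markers at the axis edge for groups with 0 UMIs. Cxcl12 was highest in deep dermal cells at P0 (438 CPM), Cxcr4 in DC/DP cells at P0 (78.1 CPM) and Ackr3 in other dermal cells at P0 (68.4 CPM).

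Clustering the dermal cells alone gave a finer picture of Cxcl12. At P0 the subcluster with the most was a group of 186 deep dermal cells led by Mfap5, Clec3b and Igfbp6, with 950 CPM [899.8 to 1002]. A second deep subcluster, of 143 cells led by Ly6a, Gas6 and Dpep1, had 469 CPM, and one of 358 cells led by C1qtnf3, Thbs2 and Sfrp2 had 169 CPM. Within upper and other dermal cells the values were lower, from 15.1 CPM in 268 cells led by Kcnk2 and Wnt16 to 81.1 CPM in 242 cells led by Entpd2 and Coch. At E16.5 an unnamed subcluster led by Mgst1 and Ctsh had 236 CPM and a deep one led by Agtr2 and Ogn had 231 CPM. A deep cluster of 34 cells led by Ly6a and Mfap5 at E16.5 had 16.6 CPM, whereas the P0 cells led by Mfap5 had the highest level. Mfap5, Clec3b and Ly6a are among the markers that named the deep group.

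Between stages Cxcl12 could be compared only in lineages whose clusters were not led by genes of another class, and the dermal class was not among them. In pericytes, the contractile cells around small vessels, it was 5.06 times higher at P0 than at E16.5 [4.01 to 6.44], where 16% of genes were called and the median gene stood at a log2 ratio of -0.15. The dermal markers in the pericyte group summed to 5138 and 6455 CPM at E16.5 and P0, and their part in this ratio was not tested. In Schwann cells the ratio of E16.5 over E13.5 was 1.90 [1.60 to 2.27] and that of P0 over E16.5 was 0.894, with 7.93% and 14.7% of genes called. The former passed the fold of 2 with chemokine genes kept as features (2.05) and as a mean over cells (2.38), and its E13.5 level overlapped that of erythroid cells. In DC/DP cells P0 over E16.5 gave 0.802 [0.471 to 1.31], an interval that spans 1. Blood endothelial cells stood at 0.350 at E16.5 over E13.5 and periderm cells at 0.218, with 9.87% and 20.5% of genes called. Both E13.5 levels were under that of erythroid cells, and these ratios are not read as changes.

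Cxcr4, the signalling receptor, was highest in DC/DP cells at E16.5 and P0, a group with little Cxcl12. Receptor and ligand were not opposed in all cells. At E16.5 the 324 upper dermal cells led by Kcnk2 had 39.2 CPM of Cxcl12 and no Cxcr4 UMI. In the upper dermis of P0 the 242 cells led by Entpd2, with most Cxcl12, had 12.4 CPM of Cxcr4. The 268 cells led by Kcnk2, with least Cxcl12, had 0 UMIs of Cxcr4. At E13.5 Cxcr4 had 50 UMIs in all, and no order of groups can be read there. At E16.5 DC/DP cells had 20.3 CPM [16.2 to 25.2] with a UMI in 15.1% of cells, and after thinning in 7.21%. Pericytes had 11.5 CPM, which overlapped the DC/DP interval, blood endothelial cells 7.74 CPM and placode or matrix cells 5.35 CPM. The other dermal cells, which were more deeply sequenced, had 0.398 CPM with a UMI in 0.350% of cells, at median depths of 10869 UMIs against 8608.5 in the DC/DP group.

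At P0 the DC/DP group stood apart, with 78.1 CPM [64.0 to 94.4] and a UMI in 40.7% of cells [33.7 to 48.0], or in 25.8% after thinning. It held 30.9% of Cxcr4 UMIs in 3.83% of cells. Upper follicle cells came next with 14.2 CPM [10.7 to 18.6] and 19.5% of cells, then upper dermal cells with 6.43 CPM and pericytes with 6.42 CPM. None of 195 other dermal cells had a UMI, which allows a share of up to 1.54%, at a median depth of 5786 UMIs against 5983.5 in the DC/DP group. In suprabasal epidermal cells, which are deeper at a median of 11684 UMIs, the share was 0.840%.

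In DC/DP cells over the rest of the dermal class Cxcr4 was 51.5-fold higher at E16.5 [28.5 to 101] and 20.6-fold higher at P0 [14.8 to 29.0]. Within the same cells P0 stood at 3.84 times E16.5 [2.86 to 5.18], where 18.8% of genes were called. The DC/DP markers themselves summed to 1965 and 3216 CPM at E16.5 and P0, and the part of the make-up of the group was not tested. Leukocyte markers, which would mark the cells best known for Cxcr4, summed to 24.2 CPM in DC/DP cells at E16.5 and 18.3 CPM at P0, with 1 and 2 of the 6 markers at 0, against 6939 CPM and 7262 CPM in leukocytes. Subclusters differed at E16.5. The 207 cells led by Bmp3, Sox18 and Sox2 had 39.8 CPM and a UMI in 28.5% of cells, the 111 cells led by Foxd1 had 7.43 CPM, and 126 cells led by Cdkn1a and Aqp1 had none. At P0 the 3 subclusters were closer, at 80.2 CPM, 54.6 CPM and 90.5 CPM.

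Ligand and receptor UMIs were seen together in 5 of 444 DC/DP cells at E16.5 and in 3 of 194 at P0. At E16.5 a Cxcr4 UMI was found in 8.20% of the 61 DC/DP cells with a Cxcl12 UMI and in 16.2% of those without one. At P0 only 12 DC/DP cells had a Cxcl12 UMI, too few for such a comparison.

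Ackr3, the scavenging receptor, was higher in upper than in deep dermal cells taken as whole groups at E16.5 and P0, though not in each of their subclusters, and higher in basal than in suprabasal epidermis at P0. At E13.5 cartilage or tendon cells had 23.9 CPM and basal epidermal cells 20.03 CPM. Both intervals overlapped that of erythroid cells, which had 15.4 CPM and a UMI in 8.22% of cells, so neither stood clear of that group. Erythroid cells held dermal RNA, however, and are a high reference. Suprabasal epidermal cells had 1.58 CPM [0.0400 to 8.80] from 1 UMI, below basal cells [10.0 to 35.8] with 11 UMIs, too few for a call. At E16.5 other epithelial cells had 25.8 CPM [22.5 to 29.4] with a UMI in 31.2% of cells and 8.64% after thinning. Upper dermal cells followed with 21.7 CPM and 18.6%, which overlapped. Deep dermal cells had 6.14 CPM and blood endothelial cells, used here as the low reference, 2.81 CPM and 4.23% of cells, with median depths of 11930 and 16418 UMIs.

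At P0 the highest level was in 195 other dermal cells led by Grem1 and Dpp4, with 68.4 CPM [54.0 to 85.3] and 33.3% of cells, or 21.5% after thinning. Upper dermal cells with 39.2 CPM [34.9 to 43.9] and basal epidermal cells with 35.6 CPM [30.6 to 41.3] came next and overlapped each other. The 3 basal subclusters, 1 of them led by markers of another class, had 38.4, 32.6 and 37.2 CPM. Placode or matrix cells had 24.5 CPM, pericytes 18.7 CPM, deep dermal cells 13.4 CPM, DC/DP cells 11.7 CPM and blood endothelial cells 5.39 CPM with 5.49% of cells. The other dermal cells also had the highest level of Dpp4, a peptidase that trims chemokines, at 145 CPM.

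Upper over deep dermal cells gave an Ackr3 ratio of 3.53 [2.49 to 5.06] at E16.5 and 2.93 [2.27 to 3.84] at P0, where 13.3% and 18.9% of genes were called. Without the 34 deep cells led by Ly6a the E16.5 ratio was 5.86, and without the 358 deep cells led by C1qtnf3 the P0 ratio was 7.18. The scavenger and Cxcl12 thus differed in opposite directions between these groups. Of the members that could be compared there, Ackr3 was called higher and Cxcl12 and Cxcl1 lower in upper dermis at E16.5, 3 of 5 members compared against 13.3% of all genes. At P0 Ackr3 and Cxcr4 were higher and Cxcl12, Cxcl1 and Ccl2 lower, 5 of 7 against 18.9%. The upper dermal subclusters led by Ube2c, Entpd2 and Mcm5 held 23, 16 and 8 Cxcr4 UMIs. The 320 cells led by globin genes and the 268 led by Kcnk2, the highest of upper dermis for Ackr3, held 3 and 0. Ccl2 was seen in 24 of 754 deep dermal cells. Suprabasal over basal epidermis gave an Ackr3 ratio of 0.191 [0.0934 to 0.349] at P0, where 18.3% of genes were called, and placode or matrix over basal cells gave 0.687. In placode or matrix cells Ackr3 stood at 1.79 times its E16.5 level at P0 [1.28 to 2.54], short of the fold of 2. These cells were not uniform. At P0 the subclusters led by Shh and by Sp5 and Shh had 3.79 and 11.4 CPM, and those led by Col14a1 and Rasl11a had 46.9 and 33.6 CPM. At E16.5 the cells led by Dkk4 had 4.44 CPM and those led by Ccer2 had 21.8 CPM. The part of this make-up in the ratios was not tested.

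**Figure D3:**
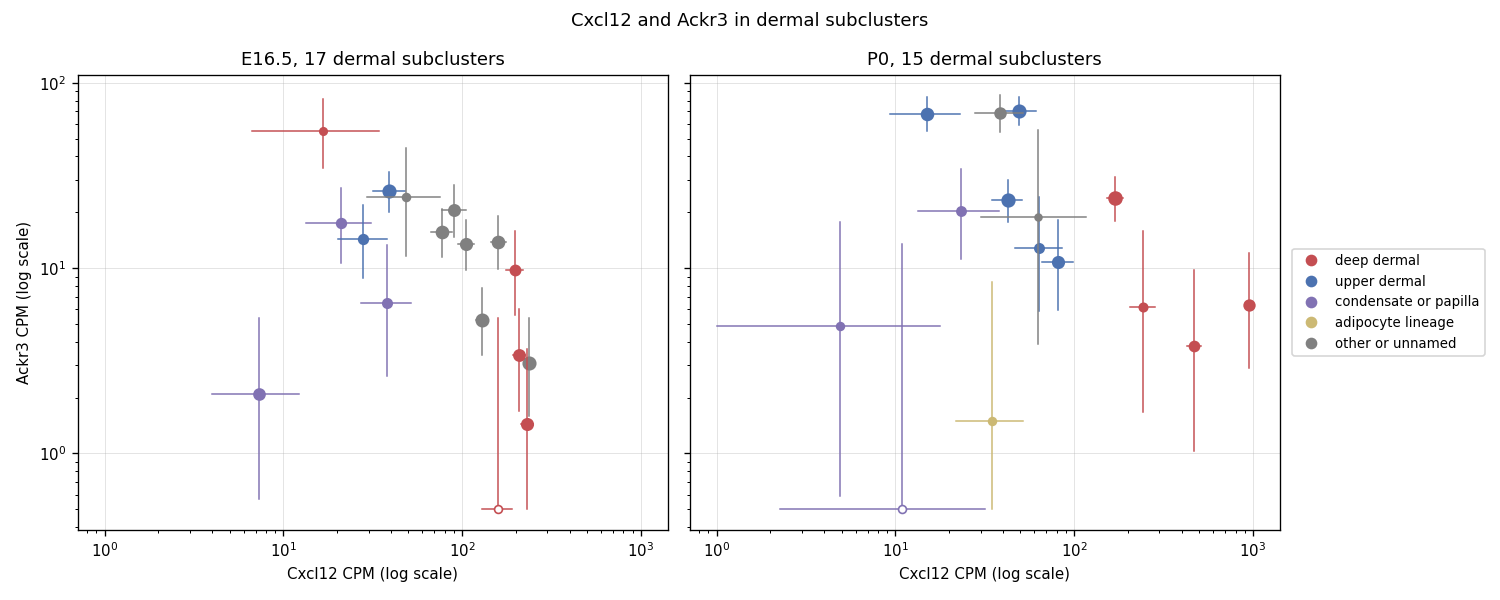
Cxcl12 against Ackr3, both in CPM on log axes, in 17 dermal subclusters at E16.5 and 15 at P0, coloured by name and sized by the number of cells, with bars for 95% Poisson intervals and open markers for 0 UMIs of Ackr3. The P0 subcluster with most Cxcl12 (950 CPM) had 6.36 CPM of Ackr3. The upper dermal subclusters with 15.1 and 49.4 CPM of Cxcl12 had 68.2 and 70.5 CPM of Ackr3. The one with 70.5 CPM was led by globin genes and then Ackr3.

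Across the dermal subclusters of P0 the highest Ackr3 values, 68.2 CPM to 70.5 CPM, were in clusters with 15.1 CPM to 49.4 CPM of Cxcl12. The cluster with 70.5 CPM, 320 upper dermal cells, was led by the globin genes Hbb-bt, Hba-a1, Hbb-bs and Hba-a2 and then by Ackr3 itself. It held 127 of the 305 upper dermal Ackr3 UMIs, and no ratio was made without it. The clusters with 469 CPM and 950 CPM of Cxcl12 had 3.80 CPM and 6.36 CPM of Ackr3. At E16.5 the highest Ackr3 value was in a deep subcluster, the 34 cells led by Ly6a and Mfap5, with 54.7 CPM and 16.6 CPM of Cxcl12, whereas the 238 cells led by Agtr2 and Ogn had 1.43 CPM and 231 CPM. Many clusters did not lie on this line. The 3 DC/DP subclusters were low for Cxcl12 at both stages, and their Ackr3 values were 2.10, 17.4 and 6.50 CPM at E16.5 and 20.4, 0 and 4.89 CPM at P0. The adipocytes of P0 had 1.504 CPM of Ackr3 at 34.6 CPM of Cxcl12, and 242 upper dermal cells led by Entpd2 and Coch had 10.8 CPM at 81.1 CPM. The 358 deep cells led by C1qtnf3 had 23.9 CPM of Ackr3 at 169 CPM of Cxcl12, more Ackr3 than the upper dermal cells led by Entpd2 or, with 12.8 CPM, by Mcm5. The subclusters share a library and were made from each other's contrast, so this is given as a description.

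All 7 members could be compared in DC/DP cells over the rest of the dermal class. At E16.5 Cxcr4 was called higher and Cxcl12, Cxcl14, Cxcl1 and Ccl2 lower, 5 of 7 members against 14% of all genes. At P0 Cxcr4 and Ccl21a were higher and Cxcl12, Ackr3 and Ccl2 lower, 5 of 7 members against 23.7% of all genes, the call of Ccl21a resting on a single cell as given with that gene. Ackr3 in DC/DP cells stood at 0.688 of the rest [0.460 to 0.994] at E16.5 and 0.385 [0.218 to 0.631] at P0. No Ccl2 UMI was seen in 194 DC/DP cells at P0, which puts the ratio at 0.197 or less with 3 counts taken as the floor.

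Cxcl14 was an epithelial transcript above a broad dermal level. The 57 cells named basal epidermal at E13.5 had 3277 CPM [3127 to 3432] and a UMI in each cell. Their leading genes were Dkk4, Gjb6 and Kremen2, of which Dkk4 is a placode marker that also led the placode or matrix cells of E16.5, and 5 of 6 basal markers were at 2 times their level in other cells or more, so basal and placode cells cannot be told apart in this group. Other dermal cells had 625 CPM, upper dermal cells 572 CPM, periderm cells 443 CPM and suprabasal cells 377 CPM. Erythroid cells had 367 CPM with a UMI in 83.1% of cells, against 95.1% of upper dermal cells, at median depths of 5805 and 10149 UMIs. Suprabasal cells overlapped this erythroid level, while periderm and dermal cells were above it. Blood endothelial cells (190.0 CPM) and Schwann cells (148 CPM) were below it.

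At E16.5 the order was placode or matrix cells with 1585 CPM [1543 to 1628], other epithelial cells with 1363 CPM [1339 to 1388], other dermal cells with 603 CPM, upper dermal cells with 578 CPM and deep dermal cells with 408 CPM. Only other and upper dermal cells overlapped among these. DC/DP cells had 264 CPM, pericytes 102 CPM, blood endothelial cells 67.0 CPM and macrophages 41.3 CPM. The low groups still had a UMI in 51.8% of blood endothelial cells and 41.0% of macrophages, which fell to 13.7% and 15.4% on thinning, against 96.3% of other dermal cells before it.

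At P0 basal epidermal cells led with 1708 CPM [1671 to 1744], followed by other epithelial cells with 1280 CPM and placode or matrix cells with 1183 CPM, which overlapped. In 1 of the 3 subclusters of the 411 basal cells, the leading genes held more markers of another class than of their own. The largest subcluster, of 208 cells, was led by Ccer2 and then by globin genes. Ccer2 also led 101 placode or matrix cells of E16.5. Upper follicle cells had 746 CPM, root sheath or shaft cells 610.5 CPM, melanocytes 544 CPM and suprabasal cells 420.2 CPM. The dermal groups at P0 had between 57.2 CPM in upper and 84.6 CPM in deep dermal cells, close to blood endothelial cells with 57.7 CPM and under Schwann cells with 98.98 CPM. At E16.5 the same named groups had 578 CPM and 408 CPM, but the dermal class had clusters led by other classes, and no comparison between stages is made for it. UMIs were seen in 25.7% of upper and 31.8% of deep dermal cells at P0, and in 23.5% of blood endothelial cells.

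**Figure D4:**
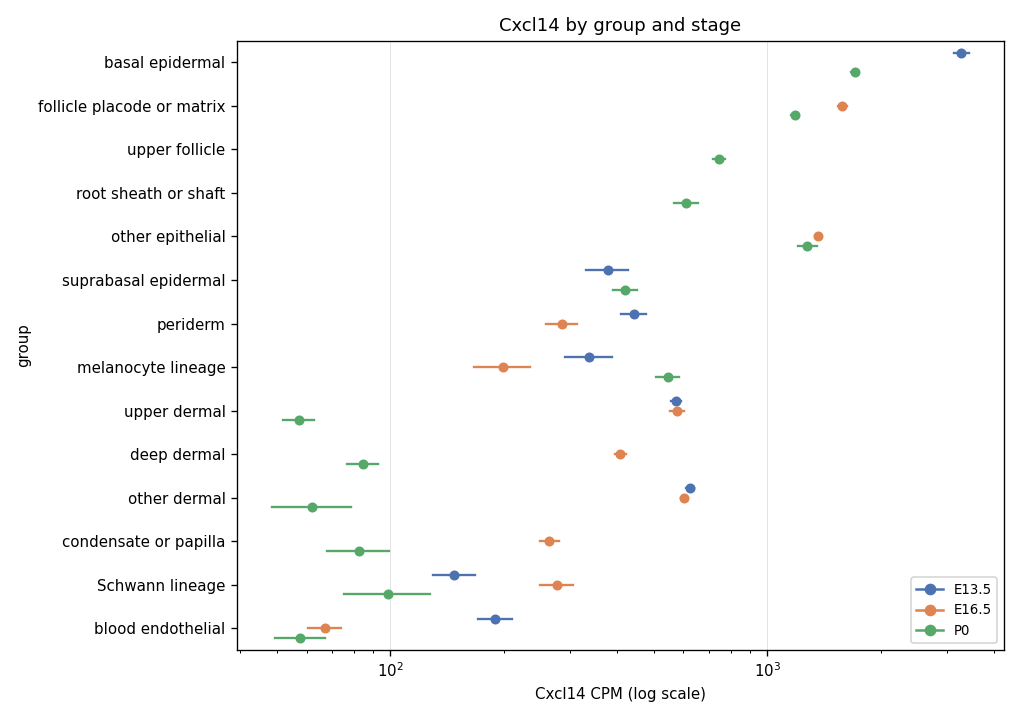
Cxcl14 by group and stage on a log axis in CPM, with bars for 95% Poisson intervals. The group named basal epidermal led at E13.5 (3277 CPM, with Dkk4 its first leading gene) and at P0 (1708 CPM), and the P0 dermal groups (57.2 to 84.6 CPM) lay near blood endothelial cells (57.7 CPM).

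Within the epithelium Cxcl14 was lower in suprabasal cells. Suprabasal over basal cells, with the E13.5 basal group as described, gave a ratio of 0.115 [0.1002 to 0.132] at E13.5, where 9.49% of genes were called, and 0.246 [0.227 to 0.266] at P0. Placode or matrix over basal cells at P0 gave 0.693 [0.672 to 0.714], where 13.7% of genes were called and no member was. Within the placode or matrix cells of E16.5 the 101 cells whose leading genes include Lhx2 and Sox9 had 1727 CPM and the 123 cells led by Dkk4 and Shh had 1424 CPM. In DC/DP cells over the rest of the dermal class the ratio was 0.483 [0.454 to 0.513] at E16.5 and 1.25 [1.02 to 1.52] at P0, when the whole class was low.

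Between stages Cxcl14 in DC/DP cells stood at 0.312 [0.255 to 0.379] at P0 over E16.5, a call that was lost (0.557) when clusters led by another class were kept. In placode or matrix cells it stood at 0.746 [0.721 to 0.773], where 17.4% of genes were called. In Schwann cells the ratio was 1.87 at E16.5 over E13.5, from a level under that of erythroid cells that is not read as a change. At P0 over E16.5 it was 0.358 [0.267 to 0.471], a call that was lost as a mean over cells (0.5008). Epithelial markers in the Schwann group summed to 28.5, 1817 and 721 CPM at the 3 stages and dermal markers to 3140, 7548 and 9411 CPM, and their part was not tested. In blood endothelial cells the ratio was 0.352 at E16.5 over E13.5, from a level under that of erythroid cells, and 0.861 at P0 over E16.5. In melanocytes, the pigment cells, P0 stood at 2.74 times E16.5 [2.28 to 3.31], where 13.4% of genes were called, but naming each cell by itself in place of its cluster gave a ratio under the fold of 2. A UMI was seen in 43.8% of melanocytes at P0 and the highest count in a cell was 57 UMIs, so the level came from a part of the cells. At E16.5 over E13.5 the melanocyte ratio was 0.590, with 9.11% of genes called.

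Ccl21a marked the lymphatic endothelium, and it was not used to name it. In 194 lymphatic cells at E13.5 the level was 7294 CPM [7172 to 7417] with a UMI in 98.97% of cells. The 44 lymphatic cells of E16.5 had 10357 CPM and the 12 of P0 had 13852 CPM, numbers of cells too small for a comparison between stages. These cells held 89.9%, 94.5% and 93.5% of all Ccl21a UMIs with 3.25%, 0.845% and 0.237% of the cells. A single lymphatic cell had from 0 to 467 UMIs (median 47) at E13.5, from 5 to 950 (median 212) at E16.5 and from 41 to 1369 (median 144) at P0. No other cell had more than the lymphatic median of its library.

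Over blood endothelial cells, the nearest other vessel type, Ccl21a was 913-fold higher at E13.5 [554 to 1633], 1437-fold at E16.5 [1058 to 2003] and 3423-fold at P0 [1957 to 6632], where 7.36%, 15.3% and 24.3% of genes were called. Blood endothelial cells had 7.98, 7.21 and 4.05 CPM and a UMI in 8.19%, 13.03% and 4.71% of cells. At E13.5 there were 45 cells outside the lymphatic group with 10 UMIs or more, and a mixed subcluster of 65 cells was led by Ccl21a and C1qc. At P0 DC/DP cells showed 29.2 CPM from 40 UMIs, of which 37 were in 1 cell. Without that cell, with 3 UMIs left, the ratio over the rest of the dermal class went from 7.09 to 0.534, so that neither this ratio nor the stage ratio of 2.94 in DC/DP cells describes the group.

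Of the other members in lymphatic over blood endothelial cells, Cxcl12 stood at 0.706, 0.323 and 0.355 at the 3 stages. Of members compared, Ccl21a was the single one called at E13.5, of 3. At E16.5 Ccl21a and Ccl2 were higher and Cxcl12 lower, of 4, with Ccl2 at 2.78 [1.59 to 4.72]. At P0, with 12 lymphatic cells, Ccl21a and Ccl2 were higher and Cxcl12, Cxcl14 and Cxcl1 lower, of 5, though the intervals of Cxcl12 and Cxcl1 span 1. Ccr7, the receptor of Ccl21a, had 22, 0 and 32 UMIs in the libraries, under the minimum for description. The lymphatic markers Prox1 and Mmrn1 were among the genes whose pattern was most like Ccl21a.

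Cxcl1 was a pericyte transcript at the later stages. At E13.5 there were 16 UMIs in the library. At E16.5 pericytes had 20.6 CPM [14.9 to 27.8] and a UMI in 16.1% of cells, or 4.44% after thinning, clear of placode or matrix cells (8.62 CPM), deep dermal cells (5.91 CPM) and macrophages (3.10 CPM) taken as whole groups, whose intervals overlapped in turn. Within these groups 47 deep dermal cells led by Acta2, a pericyte marker, and Foxs1 had 37.8 CPM [24.7 to 55.4], above the pericytes, and held 26 of the 52 deep dermal UMIs. The 123 placode or matrix cells led by Dkk4 had 15.2 CPM [9.76 to 22.7], which overlapped the pericytes. Upper dermal cells, taken as the low reference, had 0.499 CPM and 0.448% of cells, at median depths of 9721.5 and 8254.5 UMIs.

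At P0 pericytes had 312 CPM [286 to 339.9], with a UMI in 32.2% of cells and 26.9% after thinning, and they held 52.1% of the UMIs in 4.78% of cells. Up to 51 UMIs were in a single cell. Deep dermal cells had 47.6 CPM [42.0 to 53.8] and 9.68% of cells, blood endothelial cells 19.2 CPM, DC/DP cells 13.1 CPM and upper dermal cells 2.83 CPM and 1.58% of cells, at median depths of 6156.5 UMIs in pericytes and 5494 in upper dermal cells. Among 44 adipocytes, fewer than the minimum for description, the level was 61.7 CPM. None of 28 macrophages had a UMI.

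In pericytes over the dermal class Cxcl1 was 7.56-fold higher at E16.5 [5.17 to 10.9] and 14.8-fold higher at P0 [12.9 to 17.0]. Of the 7 members, Cxcl1, Ccl2 and Cxcr4 were higher and Cxcl12, Cxcl14 and Ackr3 lower in pericytes at E16.5, against 19.4% of all genes called. At P0 Cxcl1 and Ccl2 were higher, against 21.3% of all genes, and the other 5 differed by less than the fold of 2. Upper over deep dermal cells gave a Cxcl1 ratio of 0.0844 [0.00995 to 0.320] at E16.5, from 2 upper dermal UMIs, which went to 0.156 [0.0179 to 0.621] without the 47 cells led by Acta2, and 0.0594 [0.0366 to 0.0919] at P0. Within pericytes P0 stood at 15.1 times E16.5 [11.1 to 21.2] and within blood endothelial cells at 10.9 times [5.53 to 24.0], where 15.9% of genes were called in the latter.

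Ccl2 was a transcript of macrophages at each stage, of some other leukocytes at E13.5 and E16.5, and of pericytes later. At E13.5 macrophages had 163 CPM [144 to 184] and a UMI in 41.8% of cells, other leukocytes 111 CPM, neutrophils or monocytes 38.2 CPM and blood endothelial cells 16.502 CPM. The first 2 were clear of the group after them. Within other leukocytes the 39 cells led by Cd74 and H2-Aa had 167 CPM [131 to 208], which overlapped the macrophages. Erythroid cells had 10.4 CPM and 6.34% of cells, at median depths of 7136 UMIs in macrophages and 5805 in erythroid cells. At E16.5 macrophages had 292 CPM [259 to 328] and 70.5% of cells, or 51.3% after thinning, pericytes 42.7 CPM [34.3 to 52.5] and 24.4%, and blood endothelial cells 8.09 CPM, with no overlap among them. The 42 other leukocytes, fewer than the minimum for description, were led by S100a8 and Ifitm6. They had 237 CPM [190 to 292], which overlapped the macrophages. Other epithelial cells had 0.682 CPM and 1.06% of cells, at a median of 13920 UMIs against 12702 in macrophages.

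At P0 the 28 macrophages had 444 CPM [360.0 to 543], and among larger groups pericytes led with 180.3 CPM [161 to 202] and 25.2% of cells, holding 45.5% of the UMIs. Deep dermal cells had 22.3 CPM, blood endothelial cells 13.8 CPM, upper dermal cells 4.11 CPM and basal epidermal cells 0.405 CPM with 0.487% of cells. Macrophages over other leukocytes gave ratios of 2.72 [2.16 to 3.47], 2.69 [2.15 to 3.37] and 16.8 [9.18 to 33.6] at the 3 stages, where 8.88%, 16.7% and 22.3% of genes were called. The macrophage groups were not uniform, and in 2 of 4, 1 of 2 and 1 of 1 subclusters the leading genes held more markers of another class than of macrophages. As whole groups, 7 of 7 macrophage markers were at 2 times their level in other cells or more at each stage, but these markers named the groups and are no check on the name. At E13.5 the 56 cells led by Syngr1 and the 32 led by Hbb-bh1 had 82.2 and 40.7 CPM, against 165 and 312 CPM in the cells led by Lyve1 and by Crybb1, and without the former pair the ratio was 3.66 [2.88 to 4.69]. At E16.5 the 50 cells led by Ednrb had 382 CPM, and without them the ratio was 1.54 [1.12 to 2.10], under the fold of 2. Their leading genes include Lyve1 and Lpl, listed here for lymphatic cells and adipocytes but also known in macrophages. Lyve1 was among the leading genes of the 28 cells of P0 too. The mark on these subclusters therefore does not show that their cells were misnamed. Pericytes over the dermal class gave 20.02 [14.6 to 27.5] at E16.5 and 17.7 [14.6 to 21.5] at P0.

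Within pericytes 3 of 4 members compared were higher at P0 than at E16.5 and none was lower, against 16% of all genes called. These were Cxcl1, Cxcl12 and Ccl2, the last at 4.23 times [3.33 to 5.41]. In blood endothelial cells Ccl2 stood at 0.490 [0.304 to 0.799] at E16.5 over E13.5, from an E13.5 level whose interval overlapped that of erythroid cells, and at 1.71 [1.09 to 2.66] at P0 over E16.5. Leukocyte markers in the pericyte group summed to 27.3 CPM at E16.5, with none of the 6 at 0, and 20.4 CPM at P0, with 1 at 0, against 6939 CPM and 7262 CPM in leukocytes. The pericyte markers summed to 5023 and 10197 CPM at E16.5 and P0, and blood endothelial markers in the same cells to 249.9 CPM and 403 CPM. The part of the make-up of the group in these ratios was not tested.

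Cxcl1 and Ccl2 were seen together in 34 pericytes at P0 and in 7 at E16.5. At P0 a Cxcl1 UMI was seen in 55.7% of the 61 pericytes with Ccl2 and in 24.3% of those without. At E16.5 the shares were 15.9% of 44 pericytes and 16.2%. Cxcl1 was found in 32.4% of P0 pericytes with Cxcl12 and 32.04% of those without. These shares also move with the depth of a cell.

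Digestion of tissue is known to induce immediate early genes, which answer within minutes, and genes of the NF-kB inflammatory response, and Cxcl1 and Ccl2 can be among the induced genes. A list of 12 immediate early and heat shock genes summed to 462, 1708 and 4160.2 CPM over all cells of the 3 libraries in order of stage. In pericytes the sum was 2390 and 5688 CPM at E16.5 and P0, with Fos (1784 CPM), Jun (1037 CPM) and Junb (939 CPM) highest. A list of 10 NF-kB response genes summed to 78.2, 181 and 399.5 CPM in all cells. In pericytes it summed to 164 CPM at E16.5, and at P0 to 841 CPM, with Zfp36 (483 CPM), Nfkbia (228 CPM) and Ier3 (49.6 CPM) highest. Both lists were higher at P0 together with Cxcl1 and Ccl2, and their part in the levels of these members was not tested. DC/DP cells at P0 had a higher sum of immediate early genes than pericytes, 7633 CPM, with 13.1 CPM of Cxcl1 and no Ccl2 UMI. Their NF-kB sum was 328 CPM, and deep dermal cells had 648 CPM with 47.6 CPM of Cxcl1.

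**Figure D5:**
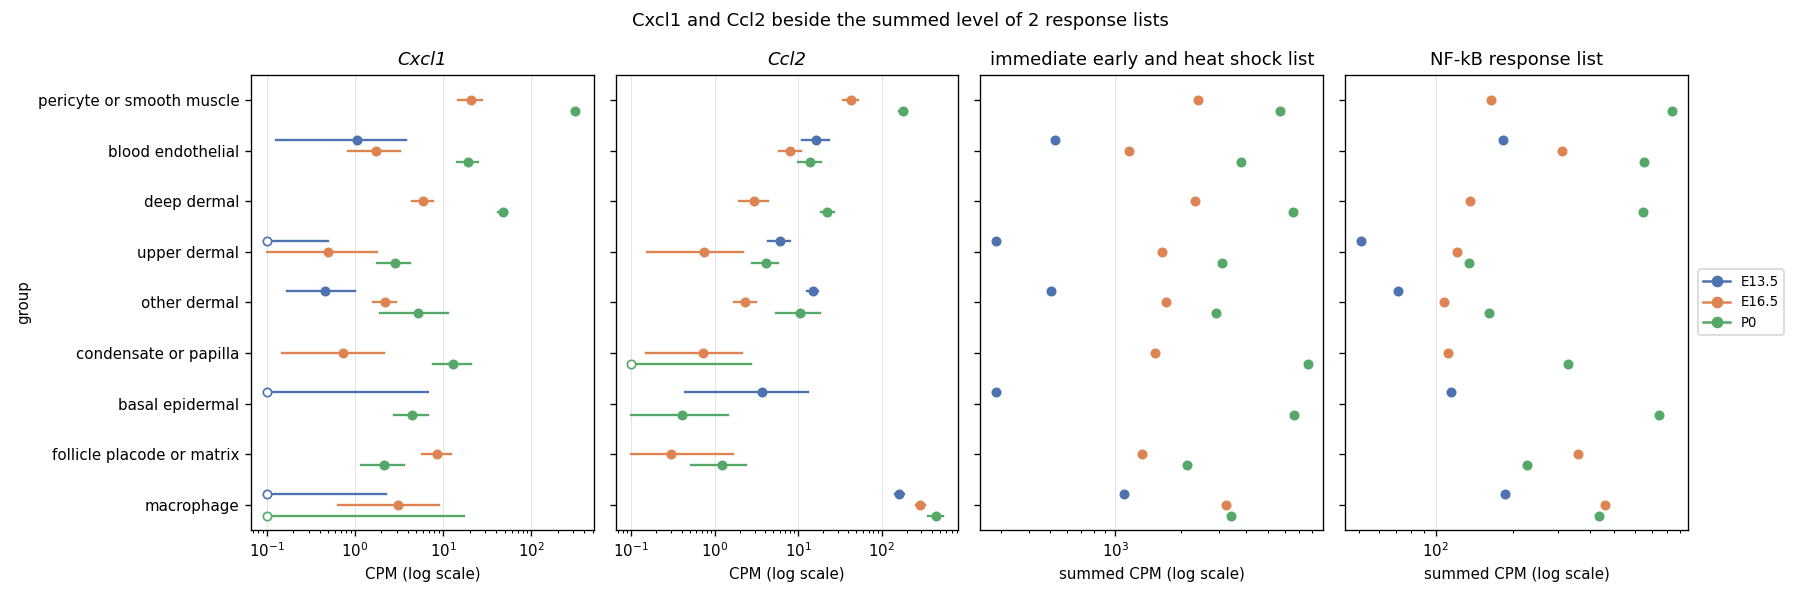
Cxcl1 and Ccl2 in CPM beside the summed CPM of 12 immediate early and heat shock genes and 10 NF-kB response genes, by group and stage on log axes, with bars for 95% Poisson intervals of the members and open markers for 0 UMIs. Pericytes at P0 had 312 CPM of Cxcl1 and 841 CPM of the NF-kB list, and DC/DP cells had 13.1 CPM of Cxcl1 with 7633 CPM of the immediate early list.

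The promoter of Cxcl1 is shown because it was the single member, of 6 matched to RefSeq on GRCm38.p6, with a match to the NF-kB consensus in the 250 bases before its start. The region is chr5:90890995-90891244 on the plus strand, and capitals mark 2 overlapping matches that begin 71 and 70 bases before the start.
Cxcl1: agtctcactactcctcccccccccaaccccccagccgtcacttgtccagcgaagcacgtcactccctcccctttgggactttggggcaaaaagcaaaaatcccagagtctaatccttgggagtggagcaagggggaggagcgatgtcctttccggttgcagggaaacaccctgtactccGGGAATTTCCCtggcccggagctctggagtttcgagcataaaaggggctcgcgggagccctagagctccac
Both strands were searched. Of 32851 promoters of this length 7.25% hold a match, and 4 of 9 matched genes of the NF-kB list do. A match in this window is a matter of letters and says nothing of binding in these cells. Ccl2 was not matched in the table.

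Of the other chemokine genes, 20 ligands and 6 receptors had at least 50 UMIs in a library. Macrophages held the highest level of 9 of them, deep dermal cells of 4 and other leukocytes of 4. Among the 10 with the highest levels, Pf4, a chemokine stored in platelets and also made by macrophages, reached 8909 CPM in the macrophages of E16.5, against 31.2 CPM in all other cells. The same cells were highest for Cx3cr1, the fractalkine receptor (442 CPM), and Ccr1, an inflammatory CC receptor (156 CPM). The same held for the CC ligands Ccl12 (327 CPM), Ccl7 (271 CPM), Ccl24 (232 CPM) and Ccl9 (219 CPM). Ccl11, which draws eosinophils, was highest in the pericytes of P0 with 295 CPM. Ccl27a, a skin chemokine of keratinocytes, was highest in the upper follicle cells of P0 with 270.1 CPM, and Ccr2, the receptor of Ccl2, in the other leukocytes of E13.5 with 195 CPM.

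The genes most like each member were ranked by Pearson's r of log2(CPM + 10) over the 44 groups, among 7168 genes. Groups of a library share its background, and r is given as a description. Cxcl12 was closest to S1pr3 (0.84), Plpp3 (0.84), Mageh1 (0.83), Ndn (0.82) and Dlk1 (0.82), a marker of the deep group. Cxcl14 was closest to Hmgn1 (0.83), Dtnb (0.82), Bcl11a (0.81), Irx2 (0.80) and Ntf5 (0.79). Cxcl1 was closest to Agt (0.96), Tusc5 (0.95), C1s1 (0.92), Map3k7cl (0.86) and Aoc3 (0.86), and its pattern rests on the pericytes of P0. For Ccl2 the nearest were Adap2 (0.94), Slc11a1 (0.93), Il4ra (0.91), Adap2os (0.90) and the neighbouring chemokine Ccl7 (0.88). Ccl21a followed Tc2n (0.93), Nts (0.88), Mmrn1 (0.85), Prox1 (0.84) and Lck (0.75), and its pattern rests on the lymphatic cells of E13.5. Mmrn1 and Prox1 are markers that named those cells. Cxcr4 followed Adamts18 (0.89), Prdm1 (0.88), Lamc3 (0.87), Ndp (0.85) and Galnt9 (0.84), of which Prdm1 named the DC/DP group. Ackr3 had the weakest likeness, with Wls (0.76), Azin2 (0.70), Cask (0.67), Htra1 (0.66) and Stxbp6 (0.66).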

How the data were processed

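The authors aligned reads of 10x v2 3' libraries to mm10 with Cell Ranger 2.2.0, kept cells with at least 1750 genes and genes in at least 3 cells with Seurat. The deposited values are natural logs of 1 plus UMIs per 10000 of a cell. All 48197283 deposited values above 0 gave whole UMI counts within 0.001. The table holds 16235 cells, against 15086 in the series description. No map between these was used. Each library was clustered in scanpy 1.11.5 (Python 3.11.15) on 2000 variable genes without 57 chemokine and receptor genes, with 30 principal components, 15 neighbours and Leiden resolution 1. Clusters were named by markers at a log2 difference of 1 or more over the 25th percentile of clusters. At least 3 such markers were required and 10 CPM was added. This reference, a platelet list and the rule that set mixed clusters aside were chosen after the clusters were seen. The members and lists were chosen with earlier results of these data known. The text names the 7 members, the 10 other chemokine genes with the highest levels, the 5 nearest genes of each member and the 3 highest genes of each response list. Others, such as leading genes of subclusters, Ccr7 and Dpp4, were named after their values were seen. Depth limits shares of cells, so cells were also thinned to 3500 UMIs, leaving out 1 cell. Scripts were tested on simulated data. Doublets were kept.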

Additional observations from a re-analysis of the deposited data

How the results depend on the processing

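No library could be left out, since there was 1 per stage. No paired analysis was possible because there was 1 library per stage, so fewer than 2 replicate numbers are shared, and no test was run. Of 253 ratios recomputed under an alternative, 252 kept their direction and 240 their side of the fold of 2. Most of these ratios set the group with the highest level of a member in these same data against all other cells. Their direction was thus nearly fixed in advance, and the count of kept directions is not read as support. With the alternatives that moved a ratio outside its counting interval, Cxcl12 in deep dermal cells at P0 (11.3 over all other cells) gave 12.997 at resolution 2, 15.01 with at least 2500 genes per cell, 8.40 as a mean over cells and 9.18 with 10 added to each CPM. Cxcl14 in basal cells at P0 (4.10) gave 3.90, 2.86 and 5.76 under the first 3 of these. Cxcl1 in pericytes at P0 (28.5) gave 22.8 with each cell named alone and 15.4 with 10 added. Ccl2 in macrophages at E16.5 (48.7) gave 65.2 at resolution 2, 62.0 with chemokine genes kept as features and 18.9 with 10 added. Ccl21a in lymphatic cells at E13.5 (245) gave 189 at resolution 2, 223 with chemokine genes kept, 227 as a mean over cells, 49.8 with each cell alone and 183 with 10 added. Cxcr4 in DC/DP cells at P0 (14.8) gave 5.77 with 10 added, and Ackr3 in other dermal cells at P0 (3.28) gave 2.196 at resolution 2 and 2.54 with 10 added. Of the P0 over E16.5 ratios, Cxcl1 in pericytes (15.1) gave 10.5 with 10 added, Cxcl12 in pericytes (5.06) gave 3.81 with each cell alone, and Cxcr4 in DC/DP cells (3.84) gave 2.48 at resolution 0.5. Cxcl14 in DC/DP cells (0.312) gave 0.404 with 2500 genes and 0.557 with no cluster called mixed, an alternative chosen after seeing the data. The genes called in pericytes between stages (1167) became 1922 with a minimum of 20 UMIs and 571 with 10 added, and those in DC/DP over other dermal cells at P0 (2495) became 969 with 10 added. Cxcr4 in other leukocytes at E13.5 went to 0 with chemokine genes kept, from 3 UMIs. Ccl21a in DC/DP cells at P0 went to 0.534 without 1 cell. Leaving out deep dermal or macrophage subclusters, as given with those ratios, was also chosen after seeing the data. Adding 10 to each CPM shrinks ratios by construction. The cause of the other moves was not tested. Scrublet called 77 cells at E16.5 and 101 at P0 as doublets but none at E13.5, where it was taken as not working, so that setting has no value there, and naming each cell alone gave values for major classes only. Shares of cells and ratios of Cxcl1 and Cxcr4 at E13.5 are limited by depth, with 16 and 50 UMIs, and erythroid cells at E13.5 and E16.5 carry dermal RNA.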
